A study of Homo sapiens with 8 samples.

Results

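MicroRNAs with a 4-digit name number of 3000 or more are late entries of the human catalogue, and 162 of them were measured well enough in HEK293 cells to be described here. They were chosen from the deposited count table as hsa-miR entries in that number range, hsa-miR-3177-3p excepted, with a mean count of at least 10 over 8 libraries and a count above 0 in at least 4. Of the table's 2867 entries, 903 carry known names and 414 of those names lie in the number range, so 39.1% of the range was kept. HEK293 is an immortalised line derived from human embryonic kidney. The groups were compared after 48 h. One set of 4 libraries, ASO 1 to ASO 4, came from cells transfected with 100 nM of an antisense oligonucleotide (ASO) built to lock the shape of a precursor microRNA, and the other 4, control 1 to control 4, came from cells that received no ASO. The library names point to miR-31, and the sequencing was done to look for off-target effects of the ASO. No group with an unrelated oligonucleotide is among the labels, which also do not say whether the controls were mock transfected, so the ASO and the transfection cannot be told apart. Whether each library is a culture of its own is not stated, so every p-value below rests on a spread that may be partly or wholly technical. MiR-31-5p itself was at 837 ± 166 CPM (counts scaled to library size, with TMM factors between libraries) with ASO and 736 ± 305 CPM without (SD, n = 4 each; log2 fold change 0.19, adjusted p = 0.851, edgeR).

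A microRNA is cut from a hairpin in a longer transcript by Drosha and then Dicer, and is loaded into an Argonaute protein. Bases 2 to 8 of the mature strand, the seed, find targets by base pairing. MicroRNAs are numbered in the order in which they are registered. Early numbers went to abundant and conserved microRNAs, while many late ones came from deep sequencing and from predictions and are rare or restricted to primates. Some of these are mirtrons, in which the hairpin is a short intron that splicing, and not Drosha, releases. Others lie on the opposite strand of an older microRNA gene.

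Sequences below come from RefSeq (GRCh38.p14), in which 143 of the 162 high-number microRNAs were matched by name and placed on the genome. The most abundant ones are shown so that each level can be tied to its seed, which is in capitals (bases 2 to 8, counted from the 5′ end).
miR-7706: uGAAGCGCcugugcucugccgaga
miR-3909: uGUCCUCUagggccugcagucu
miR-5100: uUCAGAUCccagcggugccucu
miR-4421: aCCUGUCUguggaaaggagcua
miR-4473: cUAGUGCUcuccguuacaagua
miR-3158-3p: aAGGGCUUccucucugcaggac
miR-4677-3p: uCUGUGAGaccaaagaacuacu
miR-4467: uGGCGGCGguaguuaugggcuu
These 8 seeds all differ from each other, and so did nearly all seeds of the group: the 143 sequences carried 140 distinct seeds.

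The high-number microRNAs were a large share of the names and a very small share of the molecules. They made up 21.7% of the 745 entries that passed the count rule and 0.259% of all counts over the 8 libraries. Their median level was 3.83 CPM, against 60.9 CPM for the 376 known microRNAs numbered below 3000 (let-7 included) and 2.92 CPM for the 206 predicted entries of the table. The 376 are all known names outside the number range that passed the count rule. They are called numbered below 3000 throughout, although miR-10525-3p among them carries a higher number. Of the 162, 43 reached 10 CPM and 5 reached 100 CPM. Of the 376, 273 reached 10 CPM and 163 reached 100 CPM. The count rule itself set the lower end of these levels, at 0.992 CPM, so the levels are a description. Library preparation favours some sequences over others, so levels of different microRNAs compare their reads and not strictly their molecules.

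**Figure D1:**
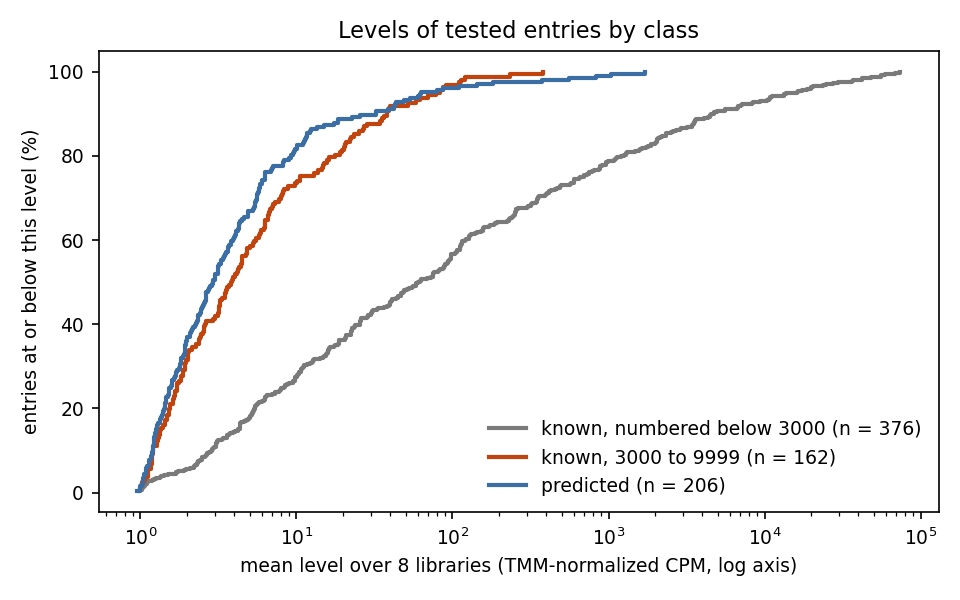
Cumulative share of tested entries (vertical axis, percent) at or below a mean TMM-normalized CPM over 8 libraries (horizontal log axis), for known microRNAs numbered below 3000, the high-number ones and predicted entries. The median of the high-number microRNAs, 3.83 CPM, lies near that of the predicted entries, 2.92 CPM, and well under the 60.9 CPM of the lower numbers.

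The number range was thinner in the table than the other known names. Of the 489 known entries outside it, 376 (76.9%) passed the same count rule. Of the 251 high-number entries that did not pass, 4 were above 0 in no library, 75 in 1 library and 86 in 2 or 3. A further 86 were above 0 in at least 4 libraries with a mean count under 10. Just inside the threshold were miR-4749-3p and miR-7110-3p, each with a mean count of 10, and miR-4766-3p with 10.25. Just outside it were miR-3681-5p, miR-4636 and miR-3943, each with 9.75.

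The median level was highest at the lowest numbers of the range. The 63 microRNAs numbered below 4000 (of 114 in the table) had a median of 5.05 CPM, and the next 44, numbered from 4000 (of 140), had 2.91 CPM. The 16 numbered from 5000 (of 35) had 3.07 CPM and the 39 numbered from 6000 (of 125) had 2.55 CPM. The 3p arm, the strand from the 3′ side of the hairpin, was named in 69 of the 162, the 5p arm in 41, and 52 carried no arm. Among those numbered from 6000, 27 of 39 were 3p and 8 were 5p. No hairpin had both of its arms among the 162. For some, such as miR-3158-3p, the other arm had no entry in the table, and which arm prevailed was not tested.

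A few microRNAs carried most of the reads. The top 10 held 52.2% of the group's counts and the top pair, miR-7706 and miR-3909, held 23.3%. Even these ranked only 113th and 136th among the known microRNAs.

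MiR-7706 (chr15:85380596-85380662, plus strand, in an annotated exon of AKAP13, a kinase-anchoring protein gene) was the most abundant. It stood at 293, 285, 189 and 330 CPM in ASO 1 to 4 and at 724, 459, 390 and 366 CPM in controls 1 to 4. All ASO libraries lay below all controls, and control 1 stood far above the other controls (405 ± 48.4 CPM, SD, n = 3). MiR-3909 (chr22:35335640-35335758, plus strand, in an intron of TOM1, an endosomal sorting gene) was at 214, 172, 201 and 211 CPM with ASO and at 371, 273, 222 and 203 CPM without. Its groups overlapped, and control 1 was again the highest.

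MiR-5100 (chr10:42997563-42997681, plus strand, in no annotated host gene) was at 101, 119, 79.0 and 134 CPM with ASO and at 163, 125, 119 and 120 CPM without. The table gives it a length of 18 bases where RefSeq has 22. Table and RefSeq lengths were equal in 67 of the 143 matched microRNAs and differed in 76. MiR-4421 (chr1:51059837-51059905, plus strand, in no annotated host gene) was at 104, 86.9, 83.7 and 110 CPM with ASO and at 158, 133, 120 and 108 CPM without. In both microRNAs the lowest control lay within the range of the ASO libraries.

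MiR-4473 (chr9:20411148-20411238, minus strand) lies in an intron of MLLT3, a reader of acetylated chromatin known as a fusion partner in leukaemia. It was measured at 101 ± 6.87 CPM with ASO and at 121 ± 18 CPM without (SD, n = 4 each). A hairpin 91027 bases away in the same gene gave miR-4474-3p at 9.83 ± 0.758 and 11.1 ± 1.58 CPM. Both microRNAs of this gene were thus measured with little spread, at very different levels.

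The remaining members of the top 10 were miR-3158-3p, miR-4677-3p, miR-4326, miR-4467 and miR-4664-3p. MiR-4677-3p (chr1:243346176-243346255, plus strand, in an intron of the centrosomal gene SDCCAG8) was nearly constant, at 87.1 ± 8.48 CPM with ASO and 86.4 ± 3.36 CPM without. MiR-4467 (chr7:102471469-102471531, plus strand, in an intron of LRWD1, which binds the origin recognition complex) was at 80.7 ± 1.89 and 76.0 ± 7.35 CPM. Both groups overlapped in both microRNAs. MiR-4664-3p was at 63.3, 54.0, 49.7 and 66.9 CPM with ASO and at 122, 83.8, 59.6 and 57.6 CPM without, with control 1 the highest library.

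**Figure D2:**
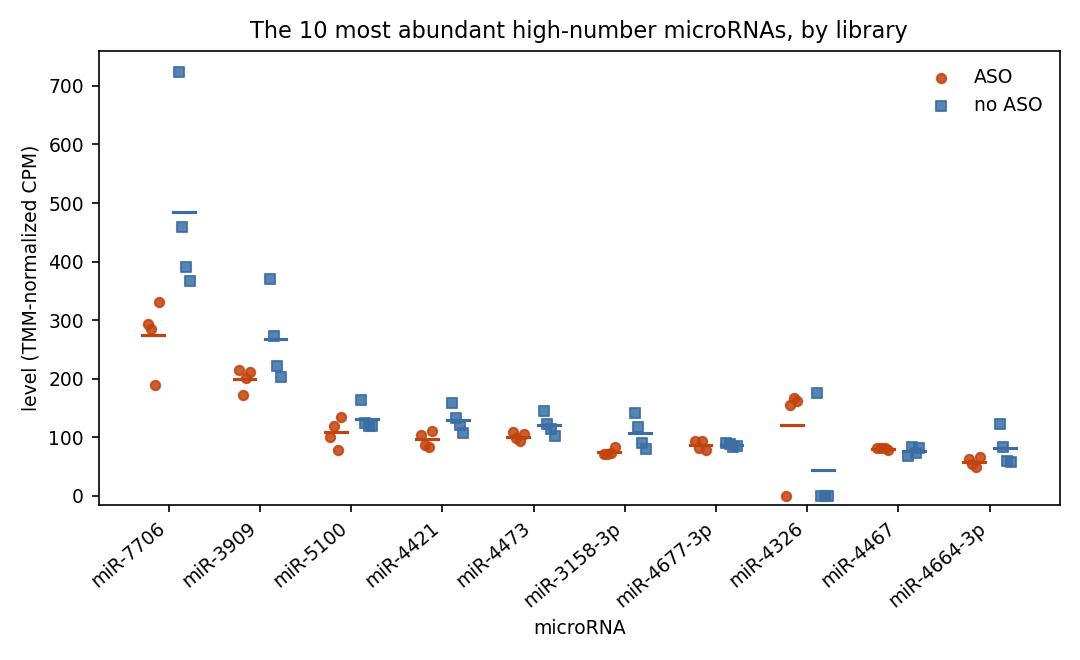
TMM-normalized CPM (vertical axis) of the 10 most abundant high-number microRNAs in each library, with circles for the 4 ASO libraries, squares for the 4 controls and bars for group means. MiR-7706 ranges from 189 to 724 CPM with no overlap between groups, and miR-4326 is either at 0 or above 150 CPM.

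Most of the group was made from introns. Of the 143 placed microRNAs (GENCODE release 29), 109 lay in an intron on the same strand, 7 in an exon and 27 in no host gene. The intron of a protein-coding gene held 98. Among these is miR-3173-5p, in an intron of DICER1 (chr14:95137919-95137986, minus strand), the gene of the enzyme that cuts microRNA hairpins. It was at 40.3 ± 2.2 CPM with ASO and 39.4 ± 4.38 CPM without. Over all 143 matched high-number microRNAs, the median GC content was 54.5%, against 47.6% for matched microRNAs numbered below 3000. Of these 143, 56.6% began with U, against 51.1%.

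The mature strands of 23 of the high-number microRNAs ended on the last base of their host intron, as the 3p strand of a mirtron does. The names from miR-6715 to miR-6895, kept as a list because many mirtrons were registered there, held 26 of the 162. Among its 3p strands with a sequence, 13 of 18 (72.2%) ended on the intron's last base and 15 ended within 2 bases of it. Among the other high-number 3p strands 10 of 44 (22.7%) did, and among 3p strands numbered below 3000 it was 4 of 121 (3.31%). Sequences of this kind are shown with the closing AG of the intron, the splice acceptor, in capitals.
miR-5010-3p: uuuugugucucccauuccccAG
miR-6798-3p: cuaccccccaucccccuguAG
miR-7111-3p: auccucucuucccuccucccAG
miR-6789-3p: cggcgcccgugucuccuccAG
miR-6515-3p: ucucuucaucuaccccccAG
miR-3620-3p: ucacccugcaucccgcacccAG
All 23 ended in AG, which follows from where they end, against 1 of 39 other high-number 3p strands and 9 of 121 (7.44%) 3p strands numbered below 3000. Their run of C and U before the AG, the polypyrimidine tract of an intron, showed as a median of 75% pyrimidine, against 50% and 54.5% in those sets. The host introns were 79 to 4453 bases long with a median of 127, and 12 were under 150 bases. No 5p strand of the group started on the first base of an intron.

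**Figure D3:**
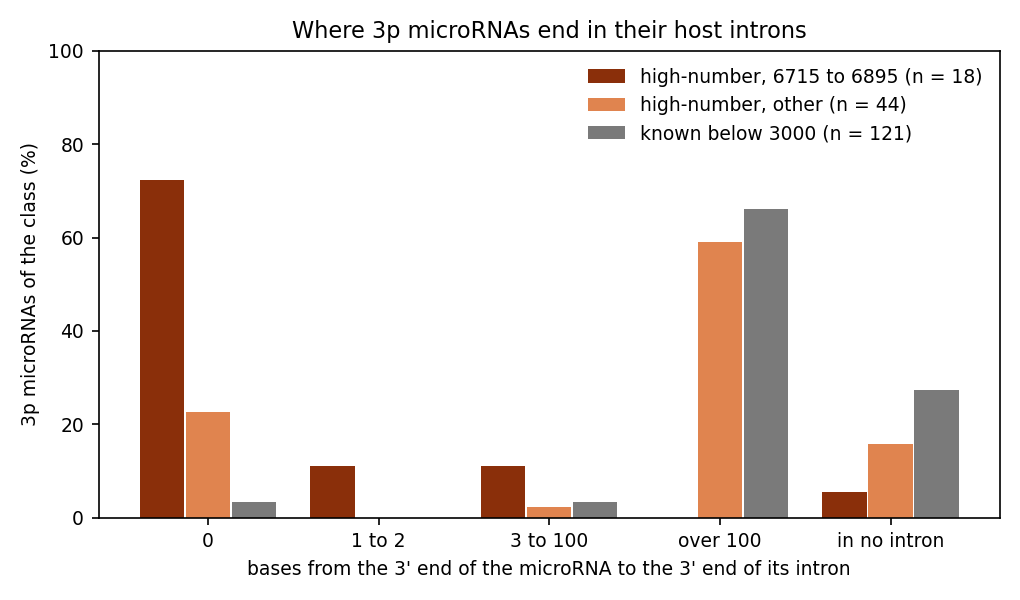
Share of 3p microRNAs (vertical axis, percent of the class) by distance in bases from their 3′ end to the 3′ end of the host intron, for miR-6715 to miR-6895, other high-number microRNAs and known microRNAs numbered below 3000. At distance 0 the bars stand at 72.2%, 22.7% and 3.31%.

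These intron-end microRNAs were low. Their median level was 2.55 CPM, and 16 of 23 were above 0 in every library. MiR-5010-3p (chr17:42514188-42514307, plus strand, from a 310-base intron of the proton pump gene ATP6V0A1) was the most abundant, at 51.1 ± 6.50 CPM with ASO and 51.9 ± 6.08 CPM without. MiR-6798-3p (chr19:49009906-49009972, plus strand, from a 90-base intron of the ATPase gene RUVBL2) was at 14.9 ± 1.67 and 15.1 ± 2.35 CPM. Other hosts were RPL10A, a ribosomal protein gene (miR-7111-3p, 5.96 ± 0.559 and 5.60 ± 0.963 CPM), PLEKHJ1 (miR-6789-3p, 3.84 ± 0.652 and 4.68 ± 0.834 CPM) and CALR, the gene of the chaperone calreticulin (miR-6515-3p, 2.45 ± 1.68 and 3.96 ± 0.715 CPM). Between the groups, 0 of the 23 had an unadjusted p under 0.05 in edgeR's quasi-likelihood test (10.5% of all 745 entries did), and in 1 the libraries did not overlap (8.32% of all entries). A fold change above 1 was found in 9 of 23 (51.7% of all entries), and their median log2 fold change was −0.02.

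Another kind of position was the opposite strand of another microRNA hairpin, found for 9 of the high-number microRNAs. In each, the mature strand can pair with a mature strand of the facing hairpin over 20 to 22 bases. The pairs with different numbers are shown with the complementary run in capitals, both strands written 5′ to 3′.
miR-3074-5p: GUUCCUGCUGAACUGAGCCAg
miR-24-3p: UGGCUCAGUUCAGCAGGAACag
miR-3065-5p: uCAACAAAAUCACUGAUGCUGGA
miR-338-3p: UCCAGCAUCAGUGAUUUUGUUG
miR-3120-3p: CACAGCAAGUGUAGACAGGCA
miR-214-5p: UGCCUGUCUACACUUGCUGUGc
miR-3184-5p: UGAGGGGCCUCAGACCGAGCUuuu
miR-423-3p: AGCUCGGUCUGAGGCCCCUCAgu
miR-3190-3p: ugUGGAAGGUAGACGGCCAGAGA
miR-3191-5p: cUCUCUGGCCGUCUACCUUCCA
For the other 4, miR-3130-5p, miR-3158-3p, miR-3688-3p and miR-3913-5p, the facing hairpin bears the same number and the partner is the other arm of that number. In miR-3913-5p the run covers the whole strand. Whether the authors' counting used the strand is not given in the labels, so how far facing strands were kept apart is unknown.

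Where a high-number strand and the facing strand of a microRNA numbered below 3000 were both in the table, their levels were far apart. MiR-24-3p, an abundant regulator of the cell cycle, averaged 2055 CPM and miR-3074-5p 61.5 CPM. MiR-423-3p averaged 20490 CPM and miR-3184-5p 10.5 CPM. Of the pair of 2 high numbers, miR-3190-3p averaged 1.18 CPM and miR-3191-5p 0.615 CPM. MiR-3074-5p was at 59.3 ± 5.04 CPM with ASO and 63.6 ± 6.08 CPM without, and miR-24-3p at 2129 ± 134 and 1982 ± 68.2 CPM. Neither passed the adjusted test (log2 fold changes −0.10, adjusted p = 0.718, and 0.10, adjusted p = 0.487, edgeR). MiR-3120-3p averaged 2.93 CPM.

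Seeds were seldom shared. Of the 143 matched microRNAs, 17 had a seed that another table entry also carried, over 14 seeds. The sequences of 4 such sets are shown with the seed in capitals.
miR-4676-3p: cACUGUUUcaccacuggcucuu
miR-452-5p: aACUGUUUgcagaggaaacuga
miR-3139: uAGGAGCUcaacagaugccuguu
miR-708-5p: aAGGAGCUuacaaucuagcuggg
miR-3616-5p: aUGAAGUGcacucaugauaugu
miR-573: cUGAAGUGauguguaacugaucag
miR-3064-5p: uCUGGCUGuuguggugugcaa
miR-3085-3p: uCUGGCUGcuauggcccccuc
In the ACUGUUU set miR-4676-3p stood at 5.28 CPM against 991 CPM for miR-452-5p, and in the AGGAGCU set miR-3139 stood at 3.50 CPM against 239 CPM for miR-708-5p. In the UGAAGUG set miR-3616-5p (7.70 CPM) and miR-573 (7.31 CPM) were alike in level. The seed CUGGCUG belonged to 2 high-number microRNAs, miR-3064-5p at 5.05 CPM and miR-3085-3p at 4.80 CPM. Among the other shared seeds, miR-4665-5p (26.9 CPM) shares UGGGGGA with miR-1275 (4.99 CPM), miR-3619-5p (1.19 CPM) shares CAGCAGG with miR-214-3p (0.246 CPM), and miR-3176 (26.7 CPM) shares CUGGCCU with miR-3922-3p (1.17 CPM). In 6 of the 14 sets the only partner was a high-number entry that did not pass the count rule.

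In another shared seed one sequence contains the other. MiR-3180 (uGGGGCGGagcuuccggag) has the same letters as the start of miR-3180-3p (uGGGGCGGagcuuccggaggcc), which RefSeq places at other hairpins of chromosome 16, and their counts were identical in 7 of 8 libraries. In control 1 miR-3180 was at 0 and miR-3180-3p at 245 counts. They cannot be treated as independent measurements.

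Zeros of this kind were common in the group. Of the 162 microRNAs, 122 (75.3%) were above 0 in all 8 libraries, against 349 of 376 (92.8%) of those numbered below 3000 and 78 of 206 (37.9%) of the predicted entries. Among the 125 for which at least 20 counts were expected from the other libraries, 21 (16.8%) were at 0 in some library, against 5.87% of those numbered below 3000 and 51.0% of the predicted ones. Each of the 8 libraries had such a zero.

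The most extreme was miR-4326, at 0, 1843, 1860 and 1672 counts in ASO 1 to 4 and at 1772, 0, 0 and 0 counts in controls 1 to 4. A count of 0 allows a level of up to 3 counts, between 0.265 and 0.362 CPM in these 4 libraries and for counting error only, while the others stood at 156 to 176 CPM. High and zero libraries occurred in both groups. MiR-3187-3p was at 0 in ASO 1 and at 230 to 315 counts in the other 7 libraries. MiR-3691-5p was at 0 in ASO 1 and in control 4, and at 70 to 135 counts elsewhere. MiR-5582-3p was at 0 in control 1 and at 56 to 93 counts elsewhere. In all 4 microRNAs a library was either at 0 or near the level of the others.

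In 8 further microRNAs a 0 stood beside at least 50 counts. MiR-3180 is described above. MiR-3064-5p was at 0 in control 3 and at 37 to 79 counts elsewhere, miR-3192-5p at 0 in ASO 3 and 19 to 65 elsewhere, and miR-3135a at 0 in control 4 and 29 to 60 elsewhere. MiR-3140-3p was at 0 in control 1 and at 19 to 63 elsewhere. MiR-5587-3p was at 0 in controls 1 and 2, miR-3143 in controls 1 and 3, and miR-4470 in ASO 1, 3 and 4 and in control 3. Zeros of these microRNAs fell in libraries of both groups.

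**Figure D4:**
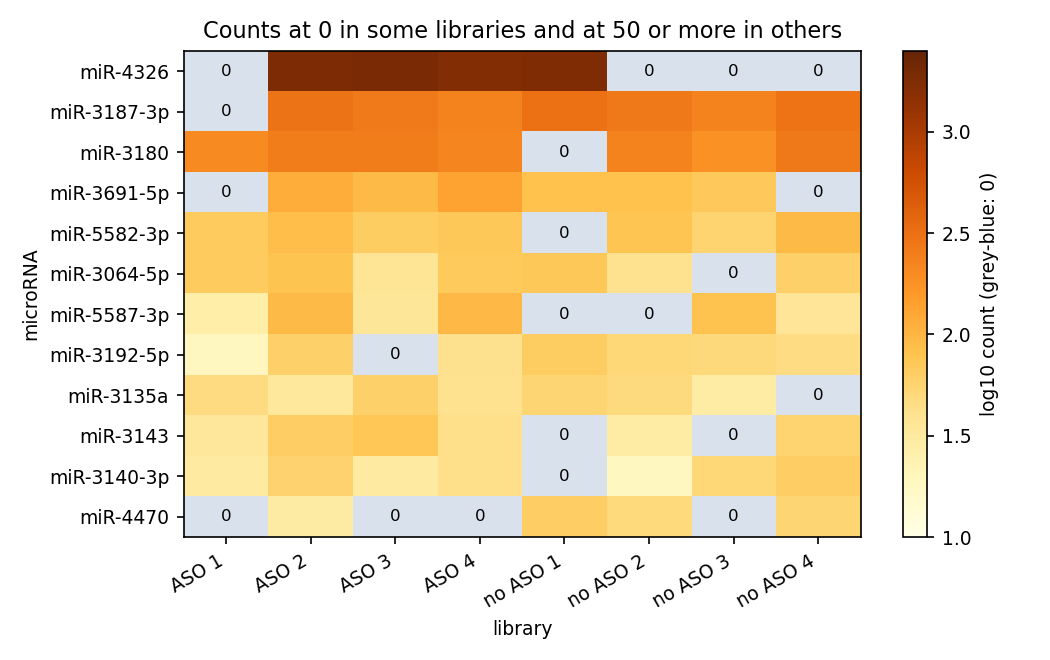
Counts (colour, log10 scale, 0 in grey-blue and marked) of the 12 high-number microRNAs with 0 in at least 1 library and at least 50 counts in another, one row per microRNA and one column per library (no ASO 1 to no ASO 4 are controls 1 to 4). MiR-4326 alternates between 0 and 1672 to 1860 counts across both groups.

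None of the 162 high-number microRNAs changed with the ASO at an adjusted p of 0.05 in edgeR. In edgeR's quasi-likelihood test over all 745 entries, 0 of the 162 passed, and 1 of 745 entries did (0.134%), miR-503-5p, which is not in the group. MiR-3177-3p met the count rule but was left out of the group by name. Its raw counts were 482 to 768 with ASO and 913 to 1202 without. The smallest adjusted p in the group was 0.402. At an unadjusted p under 0.05 there were 11 (6.79%), 4 higher and 7 lower with ASO, against 10.5% of all entries (4.43% higher and 6.04% lower). The 4 ASO libraries and the 4 controls did not overlap in 9 (5.56%), 3 higher and 6 lower, against 8.32% of all entries (3.09% higher and 5.23% lower). Both shares lay below those of all entries. With DESeq2, 2 of 162 passed, against 3.09% of all entries: miR-3065-5p (log2 fold change 0.53, adjusted p = 0.0420) and miR-7706 (−0.84, adjusted p = 0.0493).

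The group was centred close to no change. The fold change was above 1 in 76 of 162 (46.9%), against 51.7% of all 745 entries, and the median log2 fold change was −0.03, against 0.01. MicroRNAs numbered below 3000 had 229 of 376 above 1 and a median of 0.08. Among the 122 present in all libraries, values ran from −0.82 (miR-7706) to 0.72 (miR-5697). Wider values, from −2.65 to 2.04, came only from microRNAs with zeros, such as miR-4326 at 1.46 with a standard error of 2.54. Replicates also varied more than those of the far more abundant lower numbers, and less than those of the predicted entries. The median coefficient of variation was 21.8% with ASO and 25.2% without, against 11.7% and 15.3% for the lower numbers. For the predicted entries, which were nearer in level, it was 35.8% and 51.9%.

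**Figure D5:**
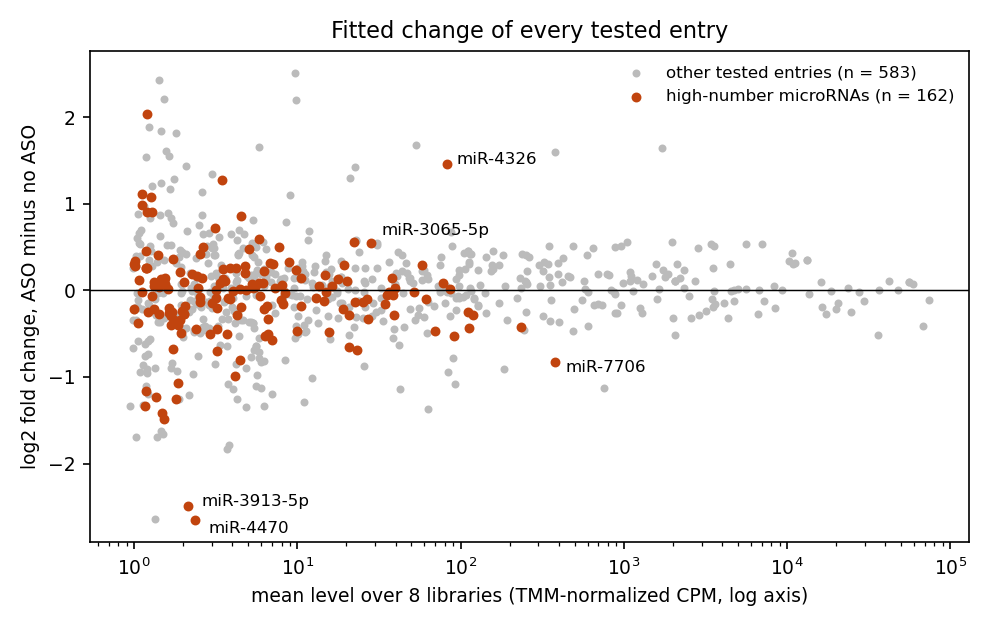
Fitted log2 fold change, ASO minus no ASO (vertical axis), against mean TMM-normalized CPM over 8 libraries (log axis) for every tested entry, with the 162 high-number microRNAs in colour. They spread around 0, with a median of −0.03, and the values beyond 1 on either side belong to microRNAs with zeros.

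Among the values higher with ASO, miR-3065-5p had the smallest p. It was at 34.2, 34.1, 36.7 and 29.4 CPM with ASO and at 17.1, 21.2, 27 and 27.1 CPM without. The groups did not overlap, and control 1 was the lowest library. Fitted by edgeR, the ASO effect was 0.54 on the log2 scale (SE 0.17, adjusted p = 0.402), with a 95% interval from 0.15 to 0.93, and it was 0.43 without control 1. Its hairpin (chr17:81125877-81125955, plus strand) faces that of miR-338 inside AATK. The table's entry for that hairpin, miR-338-5p, was at 188 ± 18.1 CPM with ASO and 154 ± 21.3 CPM without (log2 fold change 0.29, adjusted p = 0.445, edgeR). MiR-338-3p, the strand that pairs with miR-3065-5p, had no entry in the table, so no pair of facing strands was measured at this locus. The values of miR-3065-5p and miR-338-5p were in the same direction, and neither passed the edgeR test.

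MiR-3616-5p was at 8.11, 9.46, 8.18 and 10.3 CPM with ASO and at 4.96, 6.63, 7.35 and 6.62 CPM without (log2 fold change 0.50, SE 0.16), again with no overlap. MiR-573, which has the same seed, had a value of −0.26. MiR-5697 was at 3.59, 3.04, 4.68 and 4.37 CPM with ASO and at 3.08, 1.82, 2.05 and 2.56 CPM without (0.72, SE 0.25). The groups met at 3.04 and 3.08 CPM. MiR-5001-3p was at 26.4 ± 3.51 and 17.9 ± 5.32 CPM (0.56, SE 0.23).

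The other values of this side were 0.59 for miR-3130-5p (SE 0.27), 0.33 for miR-3940-3p (SE 0.17, no overlap), 0.32 for miR-6877-5p and 0.29 for miR-3200-3p. MiR-3200-3p, from an intron of the oxysterol-binding gene OSBP2, stood at 64.2, 61.8, 60.7 and 69.0 CPM with ASO and at 38.3, 50.2, 56.3 and 64.4 CPM without. Control 1 was its lowest library, and without it the value was 0.18.

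On the lower side miR-7706 had a log2 fold change of −0.82 (SE 0.26, 95% interval −1.43 to −0.22, adjusted p = 0.402, edgeR), with means of 274 ± 60.1 and 485 ± 164 CPM. Without control 1 it was −0.55 (adjusted p = 0.556). MiR-4421 (−0.43, SE 0.15) became −0.31 without control 1. MiR-3158-3p was at 71.2, 72.1, 72.3 and 83.5 CPM with ASO and at 142, 117, 90.9 and 80.0 CPM without. Its hairpins face each other at chr10:101601417-101601497, in an intron of the cilia gene DPCD on the plus strand. Its value was −0.52 (SE 0.18, 95% interval −0.95 to −0.10) and −0.34 without control 1. In the 3 microRNAs control 1 was the highest of the 8 libraries.

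MiR-4425 was at 6.16, 6.08, 4.41 and 5.15 CPM with ASO and at 9.43, 7.70, 7.11 and 6.8 CPM without (−0.51, SE 0.17), with no overlap. MiR-4511 was at 2.77, 3.29, 2.97 and 3.21 CPM with ASO and at 4.07, 3.85, 5.91 and 3.53 CPM without (−0.50, SE 0.21), also with no overlap. MiR-6842-3p had a value of −0.80 (SE 0.29) and −0.50 without control 1, miR-4786-5p −0.57 (SE 0.22) and −0.37, and miR-5009-5p −0.47 (SE 0.21) and −0.36. MiR-4511 was the exception in which control 1 was not the highest control.

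Control 1 was often at an end of the controls. It was the highest control in 7 of the 8 lower microRNAs. In the 8 higher ones it was the lowest control in 5 and the highest in 2. Among the 44 high-number microRNAs with a mean count of at least 100, it was the highest control in 20 and the lowest in 14, so it was at an end of the 4 controls in 34. Controls 2, 3 and 4 were at an end in 13, 15 and 25. Without control 1 the log2 fold change was nearer 0 in miR-3616-5p (0.41), miR-5001-3p (0.41), miR-3130-5p (0.42) and miR-4425 (−0.39), as in the 8 microRNAs given above. It was farther from 0 in miR-5697 (0.88), miR-6877-5p (0.37), miR-3940-3p (0.35) and miR-4511 (−0.52).

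The summed level showed the same library. The 162 microRNAs added up to 2345, 2435, 2301 and 2632 CPM in ASO 1 to 4 and to 3423, 2790, 2498 and 2452 CPM in controls 1 to 4. Controls averaged 2791 ± 447 CPM, or 2580 ± 183 CPM without control 1 (n = 3), and ASO libraries 2428 ± 147 CPM. Without miR-7706 the sums were 2154 ± 106 CPM with ASO and 2306 ± 285 CPM without. As a share of all counts the group ranged from 0.225% in ASO 1 (95% Wilson interval 0.223% to 0.228%) to 0.329% in control 1 (0.325% to 0.332%). These intervals cover counting error only. The sums are a description and were not tested.

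Library totals ran from 8168828 to 11677123 counts, and 1 count was worth 0.0845 to 0.121 CPM on the scale used for the levels. At the group's median of 3.83 CPM a library thus held few reads, which limits the precision of most values above. Of the microRNAs that mark other cell types, miR-142-3p of blood cells averaged 0.0496 CPM and miR-133a-3p of muscle 0.610 CPM. Markers of other cell types were not all this low. MiR-1-3p, also of muscle, and miR-126-3p of blood vessels passed the count rule, and their levels are not given here. The liver microRNA miR-122-5p stood at 29.7 ± 7.34 CPM with ASO and 12.1 ± 2.02 CPM without (log2 fold change 1.30, adjusted p = 0.0516, edgeR), and its part in the results was not tested. MiR-17-5p, high in proliferating cells, averaged 2868 CPM.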

How the data were processed

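Small RNA libraries were made from total RNA of HEK293 cells with an NEB kit, per the labels' protocols. The submitters' processing notes name bcl2fastq 2.20, Trimmomatic 0.30, edgeR 3.4.6 and the genome build GRCh38. For the aligner and counter, nothing is given in the labels. The authors deposited 1 table with a raw count for each entry and library. The authors also deposited columns headed TPM, which hold CPM: they differ by at most 0.223 from the count divided by its library total. The table's length column served only for the comparison with RefSeq.

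The 745 entries whose mean count reached 10 and that were above 0 in 4 or more of 8 libraries were tested with edgeR 4.0.16 in R 4.3.3: TMM scaling (factors 0.964 to 1.02), trended dispersion and the quasi-likelihood test, two-sided, with Benjamini-Hochberg adjustment over all 745 at 0.05. The script was tested on simulated data. DESeq2 1.42.0, other scalings and filters, known microRNAs alone, a replicate block and leaving out each library were the alternatives. CPM used the tested entries' counts and TMM factors. Groups came from the library titles, and labels give no batch.

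The group, its lists and the naming rule were chosen with earlier results of these data known. Named were the 10 most abundant microRNAs, the 8 with the smallest p in each direction, those with 0 beside at least 50 counts, those facing another hairpin, those sharing a seed with each other or with a microRNA numbered below 3000 in the table, those at the threshold and those on the lists. A list of 19 names of fragments of other structural RNAs had 3 in the table and 0 in the group. By position, 1 microRNA of the group, miR-6516-5p, overlapped another structural RNA gene on its strand, SCARNA16. Hosts came from GENCODE release 29.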

Additional observations from a re-analysis of the deposited data

Results flagged for a closer look

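In 82 groups of 4 libraries examined, 1 library stood apart from the other 3 by Dixon's criterion in 11 cases. The microRNAs examined included those named for a 0 beside at least 50 counts, a choice that favours such cases. The 11 therefore cannot be set against the rate of about 1 in 20 groups that chance alone would flag. Within the ASO libraries these were miR-3064-5p in ASO 3 (3.33 CPM), miR-3158-3p in ASO 4 (83.5 CPM), miR-3187-3p in ASO 1 (0 CPM), miR-4326 in ASO 1 (0 CPM), miR-3940-3p in ASO 2 (11.8 CPM), and miR-3913-5p and miR-4470 in ASO 2 (2.53 CPM each). Within the controls they were miR-3180 in control 1 (0 CPM), miR-3691-5p in control 4 (0 CPM), miR-4326 in control 1 (176 CPM) and miR-5100 in control 1 (163 CPM).

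Some entries of the number range had counts in ASO libraries and 0 in all 4 controls, and did not enter the test because they were above 0 in fewer than 4 libraries. MiR-7977 had 911 counts in ASO 4 alone, miR-4485-3p 231 in ASO 2 alone, miR-6511b-3p 147 in ASO 4 alone and miR-3929 127 in ASO 1 alone. MiR-3912-3p had 64 counts in ASO 2 and 41 in ASO 4. No entry of these was above 0 in more than 2 ASO libraries. MiR-7977 and miR-4485-3p are on the list of fragments of other structural RNAs. The search took only entries at 0 in all controls with a mean count of at least 10.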

How the results depend on the processing

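Of 393 alternative values for 29 named microRNAs, 385 kept their direction. These 29 were the most abundant ones, those with the smallest p in each direction and those facing another hairpin. The alternatives refitted the same libraries or all but 1 of them, and many of the 29 were picked for a small p. A kept direction was therefore likely in advance. With DESeq2, 1 high-number microRNA was called higher and 1 lower, and 23 entries in all. The other alternatives called 0 of the 162, and 0 to 5 entries in all. With a mean count of at least 100 the median log2 fold change of the 44 that remained was −0.10, and leaving out 1 library gave medians from −0.081 (without ASO 4) to −0.034. The count at an unadjusted p under 0.05 ran from 5 (without ASO 3) to 19 (without control 4), was 7 without ASO 1, ASO 2 or control 2, and was 4 with no filter and 5 at a mean count of at least 100. The direction reversed for miR-4677-3p (DESeq2 −0.0016, known microRNAs alone −0.014, median-ratio scaling −0.0011, leaving out 1 library −0.032 to 0.053) and for miR-3190-3p (−0.16 without control 4, with leave-one-out values up to 0.76). The cause was not tested. Deviations from the group means correlated at −0.04 to 0.25 between libraries with the same number. Between libraries with different numbers the correlations were −0.22 to 0.15. The highest of all, 0.25, was that of ASO 3 with control 3. With the number as a replicate block, 0 were called and the median was −0.04.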
